A study of Homo sapiens with 6 samples.

Results

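The DNA replication machinery comprised 45 genes, chosen by name as the subunits of the origin, helicase, polymerase, clamp and nucleotide supply complexes, out of 65198 gene rows. Their RNA was measured by sequencing of poly(A) RNA in MDA-MB-231 cells, an established line from a human breast adenocarcinoma of basal-like type. The shHOTAIR cells carried a tetracycline-inducible short hairpin RNA (shRNA) against HOTAIR, a long non-coding RNA of the HOXC locus, and the shCtrl cells an inducible scrambled shRNA. Each derivative was cultured in 3 independent repeats, and all 6 libraries came from cells held in 1 µg/ml doxycycline for 96 h, so the controls also received the inducer. The labels name a single derivative per hairpin, so the p-values measure the spread between repeats of each derivative. In bulk RNA, a change in the share of cells in S phase and a change in RNA per cell cannot be told apart.

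DNA replication starts at origins bound by the origin recognition complex (ORC), where CDC6 and CDT1 load the MCM2-7 helicase as an inactive double ring, a step called licensing. In S phase CDC45 and GINS join MCM2-7 to form the active helicase. DNA polymerase α-primase then lays down primers, polymerases ε and δ extend them on a PCNA clamp loaded by RFC, and RPA covers the single strands. Many of these genes are transcribed late in G1 by E2F factors, so their RNA is widely used as a sign of cycling cells.

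The promoters of the members on which the results turn most are shown with that of E2F1 for comparison, from 250 bases before to 50 bases after the transcription start. The sequences are those of RefSeq on GRCh38.p14, 5′ to 3′ on the strand of the gene. Capitals mark the E2F motifs TTTCCCGC and TTTGGCGC and the NF-Y motif CCAAT, on either strand.
PCNA, chr20:5126573-5126872, minus strand: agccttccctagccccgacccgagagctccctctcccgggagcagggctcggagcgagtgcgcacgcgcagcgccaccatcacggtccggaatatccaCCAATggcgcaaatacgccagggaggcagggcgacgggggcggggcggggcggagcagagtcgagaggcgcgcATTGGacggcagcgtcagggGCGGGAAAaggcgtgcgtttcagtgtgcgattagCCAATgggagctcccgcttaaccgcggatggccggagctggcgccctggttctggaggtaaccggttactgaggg
MCM10, chr10:13161308-13161607, plus strand: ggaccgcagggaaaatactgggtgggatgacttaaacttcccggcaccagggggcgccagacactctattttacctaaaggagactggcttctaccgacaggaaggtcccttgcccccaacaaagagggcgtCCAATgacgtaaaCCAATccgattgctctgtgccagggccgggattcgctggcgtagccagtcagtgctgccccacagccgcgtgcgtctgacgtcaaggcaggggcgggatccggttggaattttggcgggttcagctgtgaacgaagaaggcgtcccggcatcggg
MCM3, chr6:52284693-52284992, minus strand: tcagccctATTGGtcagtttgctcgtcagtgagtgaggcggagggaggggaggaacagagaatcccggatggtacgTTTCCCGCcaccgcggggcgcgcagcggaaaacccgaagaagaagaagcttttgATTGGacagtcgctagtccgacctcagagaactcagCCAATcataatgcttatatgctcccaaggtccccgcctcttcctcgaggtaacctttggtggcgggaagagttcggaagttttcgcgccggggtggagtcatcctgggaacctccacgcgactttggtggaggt
RRM2, chr2:10122489-10122788, plus strand: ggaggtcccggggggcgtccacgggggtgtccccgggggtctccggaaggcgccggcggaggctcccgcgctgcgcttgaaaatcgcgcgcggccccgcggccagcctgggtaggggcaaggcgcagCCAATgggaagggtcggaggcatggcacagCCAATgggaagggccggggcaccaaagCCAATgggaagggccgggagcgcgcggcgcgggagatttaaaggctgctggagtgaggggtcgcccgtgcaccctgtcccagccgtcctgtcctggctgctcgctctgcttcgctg
E2F1, chr20:33686336-33686635, minus strand: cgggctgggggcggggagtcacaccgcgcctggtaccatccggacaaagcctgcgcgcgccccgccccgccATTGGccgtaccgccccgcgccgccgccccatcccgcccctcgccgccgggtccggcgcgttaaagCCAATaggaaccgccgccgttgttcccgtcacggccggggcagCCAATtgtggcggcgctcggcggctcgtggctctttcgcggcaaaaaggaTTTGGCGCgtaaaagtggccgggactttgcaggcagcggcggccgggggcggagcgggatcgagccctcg

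Promoters of 39 of the 45 genes were matched. Either E2F motif was found in 17 of the 39 (43.6%), against 2.31% of 27305 promoters of the same length. TTTCCCGC was held by 10 of them and 1.66% of all promoters, TTTGGCGC by 7 of them and 0.66% of all. CCAAT was held by 23 of the 39 (59.0%), against 35.7% of all. The motif TTTGAA, known as the cell cycle homology region, was in 1 of the 39 (RRM1), against 15.43% of all. The 27305 promoters were not matched to the members by expression or base composition. The part of base composition in these differences was not tested. Within the printed windows the matches did not overlap. PCNA and MCM3 held 1 E2F match and 3 CCAAT matches each. RRM2 held 3 CCAAT matches and MCM10 held 2, both without an exact match to TTTCCCGC or TTTGGCGC. GMNN and RFC4 held none of the 4 motifs. Only exact strings were searched, so variant forms of the motifs were not counted. A match of letters is a description of the window, not a binding site.

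Values were deposited as FPKM, fragments scaled by transcript length and by library size. Levels of different genes can be set side by side only as far as the transcript lengths used hold. Those lengths are not stated in the sources used here. The median FPKM of tested protein-coding genes lay between 19.965 and 20.503 in the 6 libraries, and log2 values correlated at 0.990 to 0.994 between libraries of a group and at 0.966 to 0.973 across the groups. The number of fragments per library is not stated in the sources used here. From the spacing of low values, 1 fragment was worth 0.595 to 0.717 times as much FPKM in shHOTAIR libraries as in shCtrl 1, and 0.812 to 0.839 times in shCtrl 2 and 3, which makes the shHOTAIR libraries the deeper ones. HOTAIR itself was listed at 0 in shHOTAIR 1 and 2 and at 0.0113 FPKM in shHOTAIR 3, against 0 in shCtrl 1, 0.0128 in shCtrl 2 and 0.0132 FPKM in shCtrl 3. With so few fragments a loss of the target was not detectable (exact two-sided permutation test, p = 0.4, with 0.1 the smallest value open to 3 libraries against 3). VIM, CD44, KRT8, KRT18 and EGFR were expressed in every library, while ESR1 and CDH1 did not exceed 0.114 FPKM and PGR was listed at 0 throughout, as is usual for this line. Among those markers VIM stood at 0.414 times its shCtrl level (log2 change -1.27), KRT18 at 1.55 times (0.62), KRT8 at 1.7 times (0.75) and EGFR at 2.04 times (1.02), all called by limma, while CD44 was not called (0.01). ERBB2 stood at 17.3 to 22.9 FPKM in shHOTAIR and 18.1 to 25.5 FPKM in shCtrl libraries. The 5 fibroblast markers summed to 3.70 to 4.34 FPKM in shHOTAIR and 1.53 to 2.33 FPKM in shCtrl libraries, the largest share being COL1A1, which rose (log2 change 0.96, limma adjusted p = 0.00572). The 4 endothelial markers summed to 2.23 to 3.00 and 1.57 to 1.97 FPKM, most of it KDR. The 5 leukocyte markers summed to 16.7 to 20.0 and 21.0 to 21.9 FPKM, nearly all of it CD68, with CD3E at 0 in 4 of the 6 libraries. The part of these differences in the results was not tested.

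All 45 replication genes were expressed, and most of them differed little between the derivatives. In shHOTAIR cells 5 rose, namely the clamp PCNA, the clamp loader subunit RFC4, the helicase subunit MCM3, the ribonucleotide reductase subunit RRM2 and the licensing inhibitor GMNN. The initiation factor MCM10 fell. The other 39 did not pass the test, with log2 changes between -0.16 and 0.43. Apart from MCM10 and PCNA, every member's mean in shHOTAIR lay between 0.896 and 1.34 times its mean in shCtrl.

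All 45 passed the minimum mean of 1 FPKM and entered a limma test of log2(FPKM + 1) over 15934 genes, with p-values adjusted after Benjamini and Hochberg and called under 0.05. The share of members called was 13.3% (6 of 45). It was 23.8% among all genes tested and 28.7% among the 11587 protein-coding ones. By direction 11.1% of the members rose and 2.2% fell, against 11.5% higher and 12.4% lower of all genes, and 13.8% and 14.9% of protein-coding genes. With values rescaled to equal sums over protein-coding genes, the calls over all genes were 2221 higher and 1475 lower (60.1% higher), against 1829 and 1968 (48.2% higher) as deposited. The members called were then 8 higher and 1 lower.

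The 95% interval of the change stayed within a factor of 1.5 in both directions for 39 of the 45 members (86.7%), against 52.7% of all genes tested. Among the 39 members without a call this held for 35, the exceptions being CDC45, POLA1, POLD2 and TYMS. The members are well expressed, 44 of them with a mean of at least 10 FPKM in both groups. All genes tested reach down to a mean of 1 FPKM, and not all are protein-coding. The part of expression level in the narrow intervals was not tested. The median log2 change of the members was 0.14, against -0.03 over all genes tested, and 36 of the 45 (80.0%) had a value above 0, against 46.5% of all genes. The groups did not overlap in 17 members (37.8%), against 43% of all genes. The shHOTAIR values were the higher ones in 15 of the 45 (33.3%), against 19.9% of all genes. They were the lower ones in MCM10 and POLE (4.4%), against 23.2% of all genes. An unadjusted p under 0.05 was reached by 28.9% of members and 37.1% of all genes. Earlier results of these data were known when the members were chosen, so these shares are a description only.

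**Figure D1:**
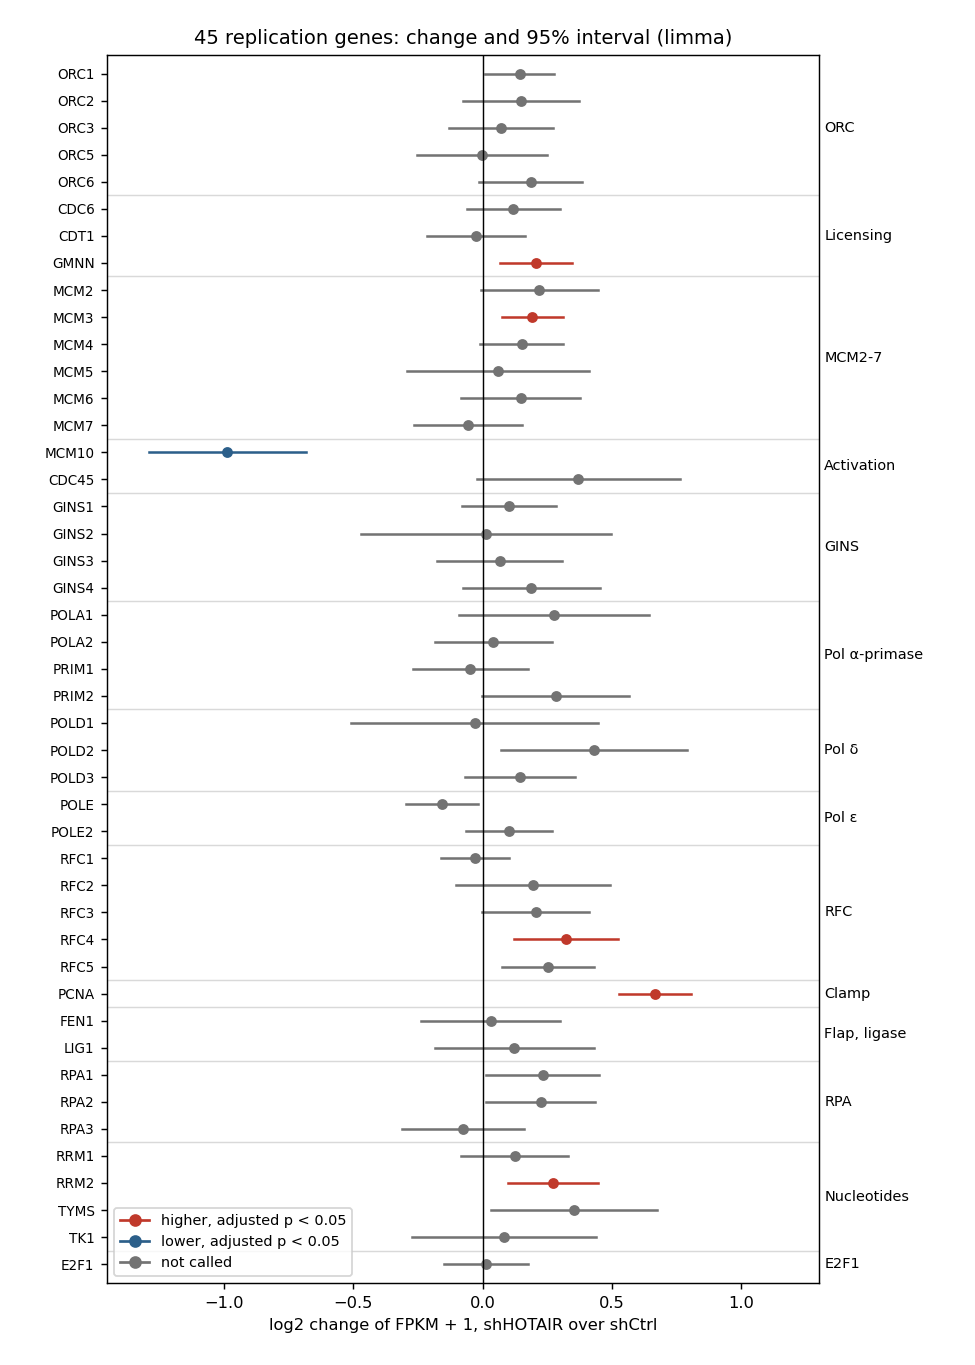
Log2 change (x axis, log2 of FPKM + 1, shHOTAIR over shCtrl) of each of the 45 replication genes, listed by complex, with points for the limma estimate and bars for its 95% interval, n = 3 libraries per group. The 5 genes that rose lie between 0.19 and 0.67, MCM10 lies at -0.99, and most of the other bars cross 0.

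The libraries did not contribute evenly. Of the 6, shCtrl 1 gave the lowest value in 27 of the 45 members, while shHOTAIR 1, 2 and 3 did so in 6, 1 and 2 and shCtrl 2 and 3 in 4 and 5. The summed FPKM of the members was 4523, 4467 and 4612 in shHOTAIR 1, 2 and 3, against 3845, 4039 and 4138 in shCtrl 1, 2 and 3. Without shCtrl 1 the median log2 change was 0.11, and only PCNA and MCM10 kept their calls. Those were also the sole members called in every fit that left out 1 library. MCM3, GMNN, RFC4 and RRM2 each lost theirs in 5 or 6 of the 6 such fits.

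None of the 5 ORC subunits among the members passed the test. ORC1, the ATPase subunit whose level varies over the cell cycle, had 13.9, 13.9 and 14.4 FPKM in shHOTAIR 1, 2 and 3, against 12.05, 12.84 and 13.01 FPKM in shCtrl 1, 2 and 3. The groups did not overlap, though the difference was small (log2 change 0.14, limma adjusted p = 0.115). ORC6, another subunit, had 45.8, 46.9 and 41.8 FPKM in shHOTAIR and 36.1, 42.4 and 39.4 FPKM in shCtrl, with overlap (log2 change 0.19, adjusted p = 0.152). ORC2 and ORC3 had log2 changes of 0.15 and 0.07. ORC5 differed least, at 33.4 ± 4.22 FPKM in shHOTAIR and 33.3 ± 1.92 FPKM in shCtrl (mean ± SD, n = 3 each), with a 95% interval of -0.26 to 0.25 for its log2 change.

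Of the licensing factors, only the inhibitor was called. GMNN encodes geminin, which binds CDT1 and blocks a further round of loading in S and G2. It had 101.9, 97.3 and 99.7 FPKM in shHOTAIR, against 81.1, 88.1 and 89.7 FPKM in shCtrl, so that each shHOTAIR value exceeded each shCtrl value. The rise was 1.154-fold by group means (log2 change 0.21, SE 0.056, limma adjusted p = 0.0499), and it was lost without any 1 library (adjusted p up to 0.102). Regional centring subtracts the median log2 level of a gene's 50 nearest protein-coding neighbours in each library. That median level need not follow the median change of the same neighbours. For GMNN regional centring gave an adjusted p of 0.148. With each neighbour first centred on its own mean, an alternative chosen after the data were seen, it was 0.0172. CDT1, its target, had 7.42, 8.29 and 7.66 FPKM in shHOTAIR and 7.36, 8.06 and 8.42 FPKM in shCtrl (log2 change -0.03). CDC6, the loading ATPase, was at 63.0 ± 3.20 FPKM in shHOTAIR and 58.0 ± 4.15 FPKM in shCtrl (log2 change 0.12, adjusted p = 0.287). The level of GMNN was 13.74, 11.73 and 13.01 times that of CDT1 in shHOTAIR, against 11.02, 10.94 and 10.66 times in shCtrl, a ratio given here without a test.

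The 6 subunits of the MCM2-7 ring form a complex with 1 copy of each, yet their RNA levels in FPKM spanned more than an order of magnitude. This span depends on the transcript lengths behind the FPKM, which are not known here. MCM4 was the most abundant of all members, with 889.2, 795.6 and 837.1 FPKM in shHOTAIR, against 723.4, 777.3 and 769.5 FPKM in shCtrl (log2 change 0.15, adjusted p = 0.155). MCM6 was the lowest of the 6, at 31.2 ± 1.72 FPKM in shHOTAIR and 28.2 ± 3.10 FPKM in shCtrl. MCM4 stood at 24.0 to 29.1 times the level of MCM6 in shHOTAIR and at 24.9 to 28.9 times in shCtrl, ranges that overlap.

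MCM3 was the only subunit of the ring to pass as measured. It had 90.4, 91.8 and 96.7 FPKM in shHOTAIR, against 80.1, 82.6 and 80.9 FPKM in shCtrl, with no overlap and the smallest standard error of the 6. The rise was 1.145-fold (log2 change 0.19, SE 0.047, limma adjusted p = 0.0362), and the call survived the removal of shHOTAIR 1 only (adjusted p up to 0.0838). MCM2 had 56.0, 55.1 and 67.3 FPKM in shHOTAIR and 51.6, 52.4 and 48.3 FPKM in shCtrl. Its groups did not overlap either, but shHOTAIR 3 stood above the others and the test was not passed (log2 change 0.22, adjusted p = 0.144). MCM5, MCM6 and MCM7 had log2 changes of 0.06, 0.15 and -0.06, and their groups overlapped. With regional centring MCM6 was called higher (0.70, adjusted p = 0.00496), though not with centred neighbours (0.24, adjusted p = 0.165). MCM7 shares its span with the gene AP4M1 on the other strand (log2 change 0.09) and hosts microRNA genes in its introns.

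MCM10, which helps to switch on the loaded helicase and to keep polymerase α at the fork, showed the largest change of the 45. It had 9.36, 10.95 and 12.06 FPKM in shHOTAIR, against 24.8, 22.7 and 19.6 FPKM in shCtrl. The highest shHOTAIR value was well under the lowest shCtrl value. By group means MCM10 stood at 0.483 times its shCtrl level (log2 change -0.99, SE 0.12, limma adjusted p = 0.00436), and the call remained without each library in turn (adjusted p up to 0.0269).

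The fall of MCM10 was shared by its surroundings. MCM10 lies on chromosome 10 (13161554 to 13211104, plus strand, GRCh38), where 91.9% of 443 tested protein-coding genes had log2 changes below 0, with a median of -0.52. Of the 10 tested protein-coding genes nearest to MCM10, all within 1.04 Mb, 10 were below 0 and 9 were called lower, with a median log2 change of -0.95. OPTN, the nearest, had 2.99, 4.59 and 3.96 FPKM in shHOTAIR and 17.1, 11.8 and 14.0 FPKM in shCtrl. Measured against the median of its 50 nearest protein-coding neighbours in each library, MCM10 was no longer called (log2 change -0.21, adjusted p = 0.344). With each neighbour first centred on its own mean the result was close to that (-0.22, adjusted p = 0.327).

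CDC45, which joins MCM2-7 in the active helicase, had 65.3, 50.8 and 54.4 FPKM in shHOTAIR, against 35.41, 46.51 and 49.97 FPKM in shCtrl. The groups did not overlap, but shHOTAIR 1 and shCtrl 1 stood far from their own groups (log2 change 0.37, 95% interval -0.02 to 0.76, adjusted p = 0.152). The 4 GINS subunits gave log2 changes of 0.01 to 0.19 with overlapping groups. GINS4 (36.9 ± 1.29 FPKM in shHOTAIR, 32.5 ± 4.73 FPKM in shCtrl) was the most abundant and GINS3 (14.98 ± 1.79 and 14.2 ± 0.900 FPKM) the least. GINS4 was called higher without shCtrl 3. GINS2 varied most within a group, at 14.1, 21.5 and 23.5 FPKM in shHOTAIR and 19.9, 17.4 and 20.1 FPKM in shCtrl.

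**Figure D2:**
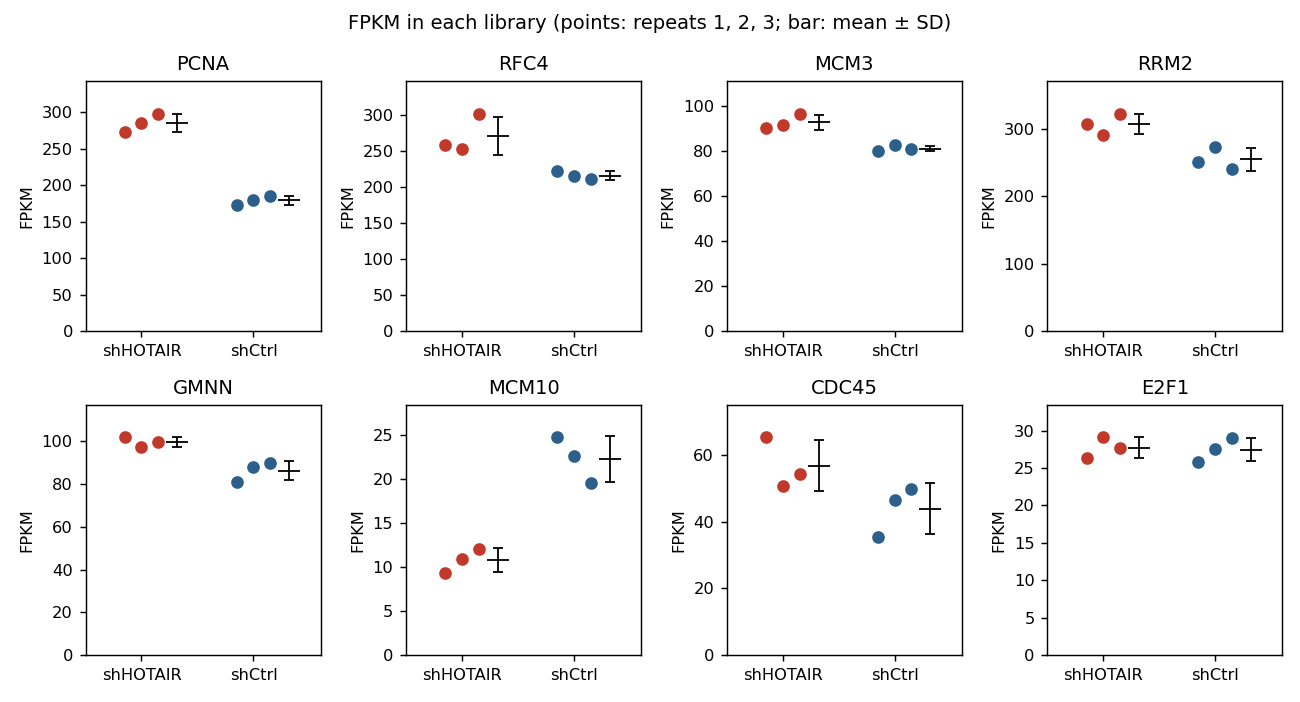
FPKM (y axis) in each library for the 6 members with a call and for CDC45 and E2F1, with points for repeats 1, 2 and 3 from left to right and bars for the mean ± SD of each group. In PCNA the 3 shHOTAIR points lie between 273 and 298 FPKM and the 3 shCtrl points between 173 and 185 FPKM, in MCM10 the order is the other way round, and in E2F1 the groups overlap.

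None of the 9 polymerase subunits was called as measured. POLD3 and PRIM2 were called higher with regional centring (0.68, adjusted p = 0.0121, and 0.47, adjusted p = 0.0499) and with centred neighbours (0.36, adjusted p = 0.0392, and 0.50, adjusted p = 0.0363). The catalytic subunit of polymerase α, POLA1, had 25.4, 22.0 and 17.5 FPKM in shHOTAIR and 16.2, 19.5 and 16.9 FPKM in shCtrl (log2 change 0.28, adjusted p = 0.236). The primase subunit PRIM2 had 55.9, 59.8 and 48.1 FPKM in shHOTAIR and 39.8, 44.8 and 49.5 FPKM in shCtrl (0.28, adjusted p = 0.136), while POLA2 (0.04) and the catalytic primase subunit PRIM1 (-0.05) were close to 0. POLA2 was nearly constant in shHOTAIR, at 30.2 ± 0.0429 FPKM, and at 29.5 ± 3.45 FPKM in shCtrl.

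POLD2, an accessory subunit of polymerase δ, had 155.3, 176.6 and 189.6 FPKM in shHOTAIR, against 141.3, 105.1 and 141.9 FPKM in shCtrl. This was the largest value among members without a call (log2 change 0.43, 95% interval 0.07 to 0.79, adjusted p = 0.0855). The catalytic subunit POLD1 had 32.02, 33.43 and 34.62 FPKM in shHOTAIR and 28.0, 30.3 and 46.5 FPKM in shCtrl, with shCtrl 3 far above the rest (log2 change -0.03). POLD3 had a log2 change of 0.15. POLE, the catalytic subunit of polymerase ε, had 103.1, 115.0 and 107.0 FPKM in shHOTAIR, against 118.9, 122.1 and 121.7 FPKM in shCtrl. It was the only member besides MCM10 whose shHOTAIR values all lay under its shCtrl values (log2 change -0.16, adjusted p = 0.0993), and it was called lower without shHOTAIR 2. POLE2, its partner subunit, had a log2 change of 0.10.

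PCNA, the sliding clamp that tethers polymerase δ and many repair and chromatin factors to DNA, gave the clearest rise. It had 273.0, 285.7 and 298.3 FPKM in shHOTAIR, against 172.8, 180.5 and 184.9 FPKM in shCtrl. The gap between the groups was several times the spread within either. The rise was 1.59-fold by group means (log2 change 0.67, SE 0.056, limma adjusted p = 0.00153), and the call remained without each library in turn (adjusted p up to 0.0109). The 3 annotated PCNA pseudogenes matched by symbol did not exceed 0.0608 FPKM in any library.

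PCNA also lies among genes with higher values (chromosome 20, 5114953 to 5126626, minus strand, GRCh38). Of its 10 nearest tested protein-coding genes, all within 0.97 Mb, 10 were above 0 and 6 were called higher, with a median log2 change of 0.45. The 2 nearest, TMEM230 (log2 change 0.40) and CDS2 (0.17), were not called. Measured against its 50 nearest neighbours in the same way, PCNA had a log2 change of 0.20 (adjusted p = 0.087), and 0.29 with the neighbours first centred on their own means (adjusted p = 0.0213).

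**Figure D3:**
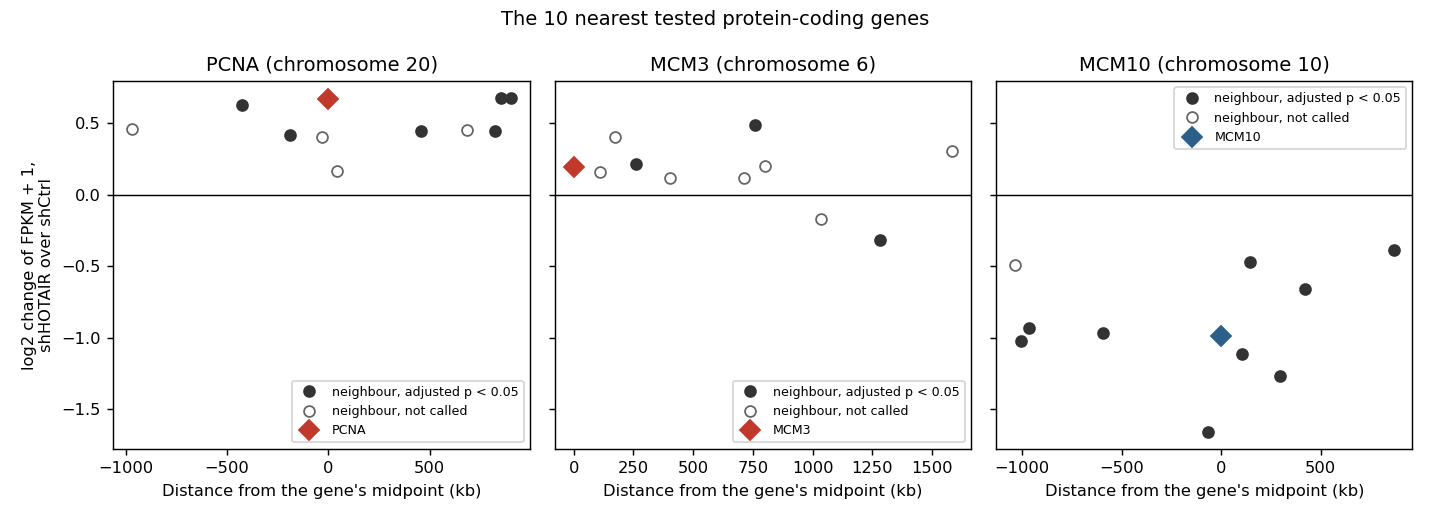
Log2 change (y axis, log2 of FPKM + 1, shHOTAIR over shCtrl) of PCNA, MCM3 and MCM10 (diamonds) and of the 10 nearest tested protein-coding genes of each (circles, filled where limma's adjusted p was under 0.05), against the distance between gene midpoints in kb. The neighbours of PCNA all lie above 0 and those of MCM10 all below 0, while 8 of the 10 around MCM3 lie above 0.

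RFC4 was the only subunit of the clamp loader to pass as measured. It had 258.1, 252.3 and 301.4 FPKM in shHOTAIR, against 221.9, 214.6 and 210.4 FPKM in shCtrl, without overlap and with shHOTAIR 3 the highest. The rise was 1.25-fold (log2 change 0.32, SE 0.081, limma adjusted p = 0.0384), and the call survived the removal of shHOTAIR 3 only (adjusted p up to 0.114). With regional centring the log2 change was 0.11 (adjusted p = 0.367), or 0.04 with centred neighbours. The span of RFC4 overlaps that of EIF4A2 on the other strand. EIF4A2, at 503 to 543 FPKM, was not called, and since the strand setting is not stated in the sources used here, some reads may be shared. RFC5 had 70.1, 75.4 and 74.1 FPKM in shHOTAIR and 56.0, 64.9 and 63.2 FPKM in shCtrl, just short of the threshold (log2 change 0.25, adjusted p = 0.0554). It was called in 4 alternatives of filter or scaling (adjusted p 0.0361 to 0.0487). RFC2 (0.20) and RFC3 (0.21) did not pass as measured. RFC2 was called higher with regional centring (0.49, adjusted p = 0.0222) but not with centred neighbours (0.25, adjusted p = 0.2005). RFC3 was called higher with centred neighbours (0.30, adjusted p = 0.0463) but not with regional centring (0.33, adjusted p = 0.0723). The large subunit RFC1 (-0.03) was at 118.4 ± 2.12 FPKM in shHOTAIR and 120.9 ± 5.99 FPKM in shCtrl.

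Neither of the enzymes that finish Okazaki fragments was called. FEN1, the flap endonuclease, had 145.2, 175.9 and 176.5 FPKM in shHOTAIR and 168.9, 145.4 and 171.9 FPKM in shCtrl (log2 change 0.03), and the ligase LIG1 had a log2 change of 0.12. FEN1 overlaps TMEM258 and FADS2, so its reads may be mixed with theirs. Of the subunits of RPA, the single-strand binding complex, RPA1 had 126.9, 124.0 and 137.1 FPKM in shHOTAIR, against 98.6, 120.2 and 112.0 FPKM in shCtrl (0.23, adjusted p = 0.118). RPA2 (0.22, adjusted p = 0.119) likewise had groups that did not overlap, and RPA3 (-0.08) overlapped. None of the 3 was called.

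Among the genes of nucleotide supply RRM2, the small subunit of ribonucleotide reductase, rose. It had 307.2, 291.2 and 322.2 FPKM in shHOTAIR, against 251.0, 272.3 and 239.7 FPKM in shCtrl, with a gap between the groups. The rise was 1.21-fold (log2 change 0.27, SE 0.07, limma adjusted p = 0.0423), and the call survived the removal of shCtrl 2 only (adjusted p up to 0.113). With regional centring the adjusted p was 0.0773, and 0.0422 with centred neighbours. Its pseudogenes matched by symbol stayed at or below 0.207 FPKM. RRM1, the large subunit, was at a similar level, 321.7 ± 30.4 FPKM in shHOTAIR and 294.6 ± 13.4 FPKM in shCtrl, and did not pass (log2 change 0.12).

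TYMS, the thymidylate synthase, had 101.9, 101.7 and 94.8 FPKM in shHOTAIR, against 63.6, 84.6 and 87.0 FPKM in shCtrl. The groups did not overlap, and shCtrl 1 lay far below the others (log2 change 0.35, adjusted p = 0.108). TYMS overlaps the antisense genes TYMSOS and ENOSF1, which were not called. TK1, the thymidine kinase of S phase cells, had 56.3, 74.0 and 82.9 FPKM in shHOTAIR and 66.8, 64.2 and 67.6 FPKM in shCtrl, a wide spread on both sides of the controls (log2 change 0.08).

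E2F1, the transcription factor that drives many of these genes, was not called. It had 26.3, 29.1 and 27.7 FPKM in shHOTAIR and 25.85, 27.51 and 29.01 FPKM in shCtrl, with a log2 change of 0.01 and a 95% interval of -0.15 to 0.18.

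**Figure D4:**
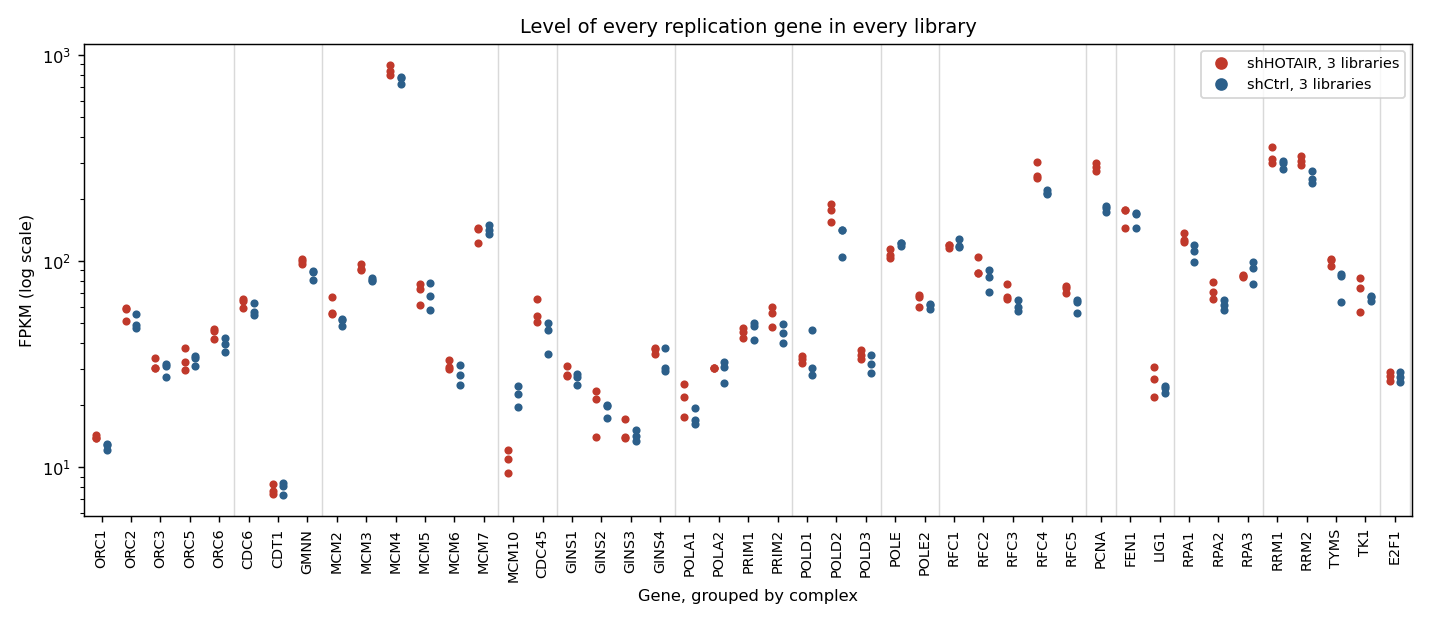
FPKM on a log axis (y axis) of all 45 replication genes (x axis, grouped by complex) in the 3 shHOTAIR and 3 shCtrl libraries, 1 point per library. Levels run from 7.36 FPKM for CDT1 in shCtrl 1 to 889.2 FPKM for MCM4 in shHOTAIR 1, and the points of the 2 groups lie close together for most genes.

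Outside the 45 members, 41 other genes of replication were counted, among them firing factors, fork protectors, histone chaperones and further enzymes of nucleotide supply. All 41 were tested, and 10 rose (24.4%) and 2 fell (4.9%). The shares were 11.5% and 12.4% among all genes, and 13.8% and 14.9% among protein-coding genes. The median log2 change of the 41 was 0.09, against -0.03 over all genes. This list was chosen with earlier results of these data known, so its shares are a description only. The smallest p among the rises was that of MCM8, a helicase-related protein of homologous recombination, with 45.9, 43.3 and 44.7 FPKM in shHOTAIR, against 26.7, 28.4 and 27.4 FPKM in shCtrl (log2 change 0.68, limma adjusted p = 0.00115). MCM8 is 824 kb from PCNA on chromosome 20 and is among its 10 nearest tested neighbours. After regional centring MCM8 kept 0.19 and was not called (adjusted p = 0.0963), while with centred neighbours it was (0.29, adjusted p = 0.0239). Its reads may be shared with its antisense gene MCM8-AS1. TOP1, the topoisomerase that removes supercoils ahead of the fork, had 163.9, 165.4 and 163.9 FPKM in shHOTAIR, against 127.0, 131.8 and 127.4 FPKM in shCtrl (0.35, adjusted p = 0.00393). CTPS1, a CTP synthase (0.31), and DONSON, which helps to assemble the active helicase (0.50), also rose. TOP1 kept its call with regional centring (adjusted p = 0.0175) and with centred neighbours (0.00711). DONSON kept it with the first alone (0.0488 and 0.134) and CTPS1 with neither (0.137 and 0.14).

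The 2 falls were those of MCMBP and SLBP. MCMBP, a binding partner of MCM proteins, had 67.8, 65.2 and 71.3 FPKM in shHOTAIR, against 91.3, 92.4 and 88.4 FPKM in shCtrl (log2 change -0.41, adjusted p = 0.00486). Like MCM10 it lies on chromosome 10, and with regional centring it had a log2 change of 0.12 (adjusted p = 0.348). SLBP, which binds the stem-loop of histone mRNA, had 88.9, 87.1 and 94.9 FPKM in shHOTAIR, against 125.2, 126.6 and 121.4 FPKM in shCtrl (-0.46, adjusted p = 0.00335). It lies on chromosome 4 in a stretch where most of its 50 nearest neighbours were below 0 (median -0.42), and with regional centring it was not called (-0.24, adjusted p = 0.183).

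Of 17 genes of the E2F and RB network, which sets the timing of replication genes, 5 rose (29.4%) and 1 fell (5.9%). The shares were 11.5% and 12.4% among all genes tested, and 13.8% and 14.9% among protein-coding genes. The median log2 change of the 17 was 0.05. This list too was chosen with earlier results of these data known, so its shares are a description only. The count of rises was 2 with regional centring, 4 with centred neighbours, and 3 to 5 with single libraries left out. Over all genes the rises also became fewer in these fits, from 1829 to 1183, 1275 and 1243 to 1554. TFDP1, the main partner protein of E2F factors, had 176.7, 178.7 and 172.2 FPKM in shHOTAIR, against 79.8, 86.2 and 85.1 FPKM in shCtrl. This was a 2.1-fold rise (log2 change 1.06, SE 0.05, limma adjusted p = 0.000409). The related TFDP2 had 69.9, 70.6 and 73.3 FPKM in shHOTAIR, against 141.4, 101.8 and 129.9 FPKM in shCtrl, and fell (log2 change -0.78, adjusted p = 0.00969). The level of TFDP1 was therefore 2.35 to 2.53 times that of TFDP2 in shHOTAIR libraries and 0.564 to 0.847 times in shCtrl libraries.

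The RB1 gene rose as well, with 52.2, 42.8 and 41.1 FPKM in shHOTAIR, against 26.9, 31.6 and 27.6 FPKM in shCtrl (log2 change 0.64, adjusted p = 0.0129). TFDP1 and RB1 both lie on chromosome 13, where the median log2 change of 202 protein-coding genes was 0.41. With regional centring TFDP1 kept a log2 change of 0.33 (adjusted p = 0.0263), while RB1 had 0.10 (adjusted p = 0.451). Centred neighbours gave TFDP1 0.307 (adjusted p = 0.01595) and RB1 0.157 (adjusted p = 0.3861). TFDP2, on chromosome 3, kept its call with regional centring (-0.795, adjusted p = 0.0237) and with centred neighbours (-0.773, adjusted p = 0.0131). RB1 holds LPAR6 and other genes on the opposite strand within its span. The other rises were those of MYBL2 (0.70, adjusted p = 0.00757), LIN54 (0.61, adjusted p = 0.00275) and E2F8 (0.33, adjusted p = 0.022), the last named after its value was seen. MYBL2 kept its call with regional centring (adjusted p = 0.00417) and with centred neighbours (0.00473). E2F8 kept it with centred neighbours alone (0.0656 and 0.017) and LIN54 with neither (0.0828 and 0.0734). E2F2 to E2F7 were not called.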

How the data were processed

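The 6 poly(A) RNA libraries, 3 shHOTAIR and 3 shCtrl, were grouped by the hairpin in the sample titles, which matched the column names. The authors deposited FPKM values, and TopHat2 2.0.13, DESeq and GRCh38 are named in the submitters' processing notes without a role or order. The program and annotation behind the FPKM, the strand setting and the fragment totals are not stated in the sources used here. Depth is thus known only relative to shCtrl 1, from the commonest ratio of values between 0.001 and 0.1 FPKM (tolerance 0.01 on the log2 scale).

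Of 65198 gene rows, 56807 matched GENCODE 29 by Ensembl identifier, which gave symbols and positions. Values were tested as log2(FPKM + 1), which understates changes of low genes, where the mean reached 1 FPKM, with limma 3.58.1 in R 4.3.3 (intensity trend, no replicate block). Benjamini-Hochberg adjustment covered all 15934 genes. The code was tested on simulated data. Regional centring subtracts the median log2 level of the 50 nearest protein-coding neighbours in each library. The form with centred neighbours subtracts the median of their deviations from their own means. No pair of libraries had more than 0.00628% of tested values above 0 exactly equal, as deposited and without rounding. Tables and figures used Python 3.11.15.

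Members and lists were chosen with earlier results of these data known. All members were described by complex; from the lists of other replication genes and of the E2F and RB network, called genes with the 4 smallest p in each direction were named. Alternatives were other pseudocounts, filters, scalings and limma settings, a replicate block, single libraries left out, and regional centring.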

Additional observations from a re-analysis of the deposited data

How the results depend on the processing

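PCNA kept its call under 17 of 18 alternatives (adjusted p 0.00105 to 0.087) and MCM10 under 16 of 18 (0.00295 to 0.344), PCNA losing it with regional centring and MCM10 with both forms of it. MCM3 kept its call in 11 (up to 0.131), RFC4 and RRM2 in 8 (up to 0.8 and 0.146) and GMNN in 6 (up to 0.156). The count of 5 members higher became 2 with no filter on low values, 8 with equal sums over protein-coding genes, 1 without trend, 1 with the replicate block and 1 to 2 with single libraries left out. It stayed at 5 with regional centring, but only MCM3 was shared, the others being MCM6, POLD3, PRIM2 and RFC2. With centred neighbours it was 7, of which 4 were shared (GMNN, MCM3, PCNA and RRM2). The count of 1 member lower became 0 with either regional centring and 1 to 2 with libraries left out. Other replication genes, 10 higher and 2 lower, became 3 higher with the replicate block, 6 higher and 0 lower with either regional centring, and 4 to 7 higher without single libraries. The median log2 change of the members was 0.21 with equal sums over protein-coding genes and 0.11 to 0.16 with libraries left out. Over all genes, 3797 calls became 1740 with the replicate block, 2192 with regional centring, 2406 with neighbours centred on their own means, and 2470 to 3159 with libraries left out. The cause was not tested.

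Same-numbered libraries did not deviate together (correlations -0.141, -0.069 and -0.051), so the replicate block pairs by number only. With the block PCNA and MCM10 were the members called.

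Signs turned mostly for members near 0. Under either form of regional centring or both, they also turned for ORC2 (0.15 as measured) and RPA2 (0.22). Outside the members they turned there for MCMBP (-0.41) and SLBP (-0.46), both called as measured. ORC5 was 0.028 with quantile normalization, 0.014 with the median of ratios and 0.069 with equal protein-coding sums, a setting that also gave CDT1 0.0398, MCM7 0.018, PRIM1 0.023, POLD1 0.041 and RFC1 0.043. Regional centring gave ORC2 -0.10, ORC5 0.20, MCM7 0.0077, GINS1 -0.17, GINS2 -0.19, PRIM1 0.13, POLD1 0.063, RFC1 0.18, E2F1 -0.11 and MCMBP 0.12. With neighbours centred on their own means ORC2 was -0.048, ORC5 0.13, CDT1 0.034, MCM7 0.11, GINS1 -0.044, PRIM1 0.0396, POLD1 0.13, RFC1 0.13, RPA2 -0.0203, MCMBP 0.0801 and SLBP 0.013. With single libraries left out the ranges that crossed 0 were CDT1 -0.073 to 0.013, E2F1 -0.028 to 0.052, FEN1 -0.044 to 0.12, GINS2 -0.12 to 0.23, GINS3 -0.025 to 0.11, MCM5 -0.048 to 0.17, MCM7 -0.098 to 0.023, ORC5 -0.097 to 0.075, POLA2 -0.053 to 0.11, POLD1 -0.17 to 0.19, PRIM1 -0.13 to 0.0036, RFC1 -0.054 to 0.011 and TK1 -0.035 to 0.24.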

Other observations

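Of 22 genes of mitosis 2 rose (9.1%) and 1 fell (4.5%). The shares were 11.5% and 12.4% among all genes tested, and 13.8% and 14.9% among protein-coding genes. The median log2 change of the 22 was 0.01, and 11 of them lay above 0, against 46.5% of all genes. This list was likewise chosen with earlier results of these data known. The rises were those of CCNA2, the cyclin of S phase and G2, with 55.9, 52.0 and 51.2 FPKM in shHOTAIR, against 32.4, 36.1 and 34.1 FPKM in shCtrl (log2 change 0.62, limma adjusted p = 0.00248), and of CENPE (0.31, adjusted p = 0.0406), a kinesin of the kinetochore. The fall was that of KIF11 (-0.34, adjusted p = 0.0217), a spindle kinesin on chromosome 10. With regional centring CCNA2 kept its call (0.36, adjusted p = 0.0337), while CENPE (-0.07) and KIF11 (0.22) turned sign without a call. These genes were named after their values were seen. MKI67, the gene of the proliferation antigen Ki-67, also on chromosome 10, had 66.4, 71.8 and 76.7 FPKM in shHOTAIR and 87.1, 68.3 and 68.6 FPKM in shCtrl (-0.05).

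Whether MCM3 differed from its region depended on the width of the window. Its 10 nearest tested protein-coding genes had a median log2 change of 0.18, while its 50 nearest had -0.44. Regional centring over 50 genes gave MCM3 a log2 change of 0.59 (adjusted p = 0.00453), against 0.19 as measured. With centred neighbours it was also 0.59 (adjusted p = 0.00184).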
